A study of Mus musculus with 9 samples.

Results

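The killer lectin-like receptors described here are 6 mouse genes, Klrc1, Klrd1, Klrk1, Klrg1, Klra1 and Klrb1c, chosen by name. They were represented by 7 of the 39429 probes and stand among 32451 genes or unnamed transcripts on the array. Their levels were measured on 9 one-colour arrays, 3 for each of 3 populations of CD4+ T cells from BALB/c mice, taken from spleen and lymph nodes. Cells were enriched for CD4 on a magnetic column, stimulated for 3 h with PMA at 10 ng/ml and ionomycin at 500 ng/ml, labelled for the IL-17A and interferon gamma they secreted, and sorted. Naive cells were CD45RB high. Th1 cells were CD45RB low, positive for interferon gamma and negative for IL-17A, and Th17 cells were CD45RB low, negative for interferon gamma and positive for IL-17A. Naive cells had therefore received the same stimulation as the others, and effector cells were those that had already secreted a cytokine. The labels do not say which animals, pools or sorts lie behind the replicates, so the p-values cover the spread between these arrays alone, and that spread may be technical.

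Killer lectin-like receptors are surface proteins with a C-type lectin-like domain, best known from natural killer (NK) cells and also found on activated CD8 T cells and on some memory and innate-like T cells. Some carry an inhibitory motif in the cytoplasmic tail that recruits tyrosine phosphatases. Others signal through adaptor proteins that recruit kinases, and several read MHC class I or stress-induced relatives of it on neighbouring cells. Most of the genes lie together on mouse chromosome 6, in the region called the NK gene complex.

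A level below is the log2 processed signal of a probe minus the 75th percentile of its array, so 0 marks a signal as bright as that percentile and each unit is a doubling. Whether a spot lay well above background was taken from the scanner software. The lowest signal among probes well above background was between -5.53 and -4.83 on the 9 arrays, and levels under this have no order. A fold given as at least some value is measured against this limit and holds for the processed signal alone. Levels are compared between groups for one probe, not between probes. In bulk RNA, a change in the share of cells that express a gene and a change in RNA per cell cannot be told apart.

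The sort was visible in the cytokine genes. Ifng had a mean of 9.12 ± 0.18 (SD, n = 3) in Th1, 1.72 ± 0.48 in Th17 and 1.42 ± 0.17 in naive cells, and Il17a 9.24 ± 0.24 in Th17, -0.77 ± 1.50 in Th1 and -3.03 ± 2.43 in naive cells. Cd4 and Cd3e, which define CD4 T cells, were well above background on all 9 arrays. The share of probes well above background ran from 53.4% to 58.3% over the arrays. Slide 1 held the 3 naive arrays and Th1 replicate 1, slide 2 held Th1 replicates 2 and 3 with Th17 replicates 1 and 2, and slide 3 held Th17 replicate 3, so naive and Th17 cells never shared a slide. Th17 replicate 3 stood apart: 101 of 19053 genes lay at least 2 log2 units above every other array there, against between 2 and 14 genes on each of the other arrays.

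Among the receptors, 4 of 6 passed the filter of a probe well above background on at least 3 arrays and were tested: Klrc1, Klrk1, Klrg1 and Klra1. Klrd1 was well above background on 2 arrays and Klrb1c on none, so neither was tested. Against naive cells, 3 of the 4 were higher in Th17 cells, where 24.4% of all tested genes were called higher (limma, adjusted p under 0.05). Against Th1 cells, 2 of the 4 were higher in Th17 cells, where 8.26% of all tested genes were called higher. Between Th1 and naive cells, 1 of the 4 was higher in Th1 cells, where 23.5% of all tested genes were called higher. Klrk1 passed the filter through the Th17 arrays alone, Klrc1 through these and 1 naive array, and Klrg1 through the arrays of both effector groups. A gene that passes only through the groups where it is high had to differ from the rest, so these counts are a description.

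**Figure D1:**
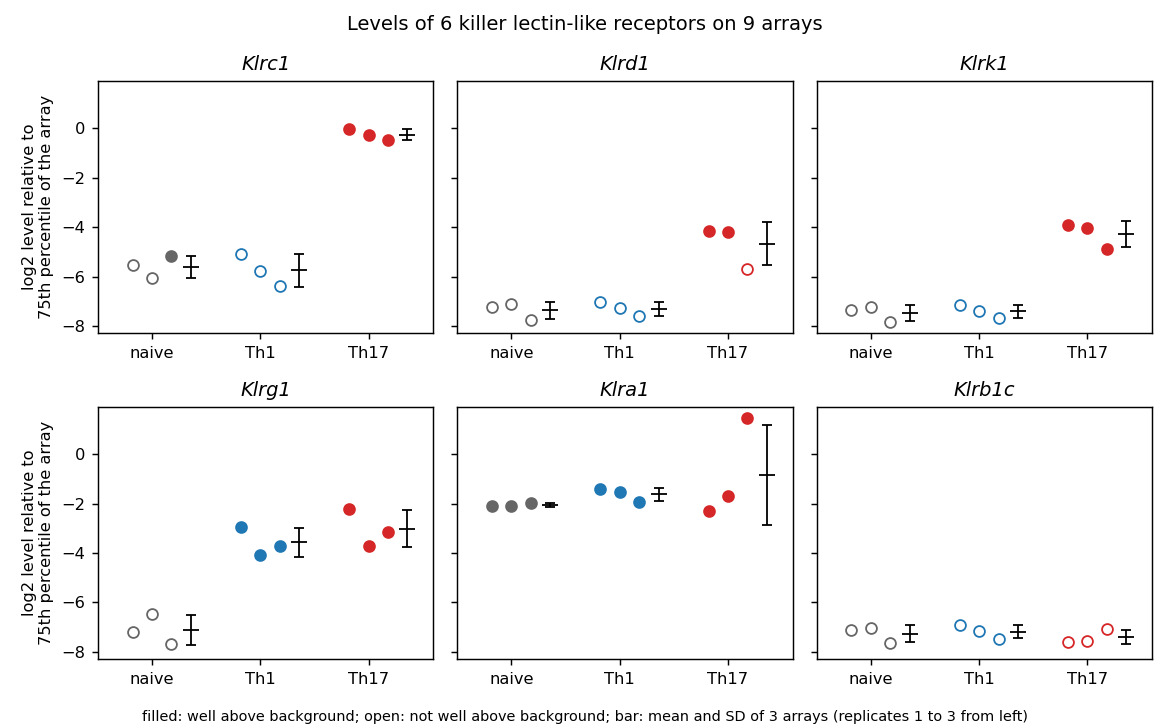
Levels of the 6 receptors on the 9 arrays (vertical axis, log2 signal minus the 75th percentile of each array; brightest probe per gene), with the 3 arrays of each group as points and the mean ± SD as a bar beside them. Filled points were well above background and open points were not. Klrc1 and Klrk1 rise above the open points on the 3 Th17 arrays, Klrd1 on 2 of them, Klrg1 in Th1 and Th17 cells, and Klra1 stands near -2 on 8 arrays and at 1.45 on Th17 replicate 3.

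Klrc1 encodes NKG2A, an inhibitory receptor that pairs with the CD94 protein of Klrd1 and reads the class Ib molecule Qa-1 of H2-T23. Its levels were -5.54, -6.07 and -5.18 on naive arrays 1 to 3, -5.08, -5.77 and -6.39 on Th1 arrays 1 to 3, and -0.02, -0.26 and -0.49 on Th17 arrays 1 to 3. The Th17 arrays lay far above the other 6, which overlapped each other. It was well above background on the 3 Th17 arrays and on naive replicate 3, and on no Th1 array. Against Th1 cells the Th17 processed signal was at least 28.6-fold higher, measured against the detection limit of the Th1 arrays (log2 difference 5.49 ± 0.34 SE, adjusted p = 3.24e-05). Against naive cells, of which 1 array measured it, the log2 difference was 5.34 ± 0.34 (adjusted p = 7.76e-06). Th1 and naive cells, at means of -5.75 and -5.60, gave no call (adjusted p = 0.744), and with 5 of these 6 arrays below background their levels have no order.

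Klrd1 encodes CD94, the partner chain without which NKG2A is not carried to the surface as a working receptor. It read -4.15 and -4.18 on Th17 arrays 1 and 2, both well above background, and -5.69 on Th17 array 3, which was not. On the naive arrays it read -7.23, -7.11 and -7.76 and on the Th1 arrays -7.03, -7.26 and -7.59, all below background. Th17 arrays 1 and 2 thus lay above the other 7, which have no order. Because 1 Th17 array did not measure it, no bound on the fold is given. When no filter on dim probes was used, the log2 difference was 2.69 ± 0.41 against naive cells (adjusted p = 0.00186; 13.2% of 32451 genes called higher) and 2.62 ± 0.41 against Th1 cells (adjusted p = 0.00941; 3.15% called higher). These are fitted differences of signals that lie mostly below background, and their sizes are not measured folds.

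Klrk1 encodes NKG2D, an activating receptor for stress-induced ligands of the RAE-1, H60 and MULT1 kinds that signals through the adaptor DAP10. It was well above background on the 3 Th17 arrays alone, at -3.91, -4.03 and -4.87. The naive arrays read -7.34, -7.21 and -7.83 and the Th1 arrays -7.13, -7.40 and -7.67. The groups of naive and Th1 arrays overlapped each other and lay below every Th17 array. The Th17 level was at least 1.84-fold above the naive limit of detection (log2 difference 3.19 ± 0.28, adjusted p = 4.05e-05) and at least 1.77-fold above that of Th1 cells (3.13 ± 0.28, adjusted p = 0.000223).

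Klrg1 encodes an inhibitory receptor for cadherins that is known from antigen-experienced T cells and mature NK cells. It read -2.93, -4.07 and -3.71 on the Th1 arrays and -2.22, -3.71 and -3.14 on the Th17 arrays, each well above background. On the naive arrays it read -7.21, -6.46 and -7.69, none above background. The naive arrays lay below all 6 effector arrays, and the effector groups overlapped. Th1 cells were at least 2.98-fold above the naive limit (log2 difference 3.54 ± 0.46, adjusted p = 0.00036) and Th17 cells at least 4.36-fold (4.09 ± 0.46, adjusted p = 0.000152). The order of means was naive, Th1, Th17, and Th1 and Th17 did not differ beyond their spread (0.55 ± 0.46, adjusted p = 0.463).

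Klra1 encodes Ly49A, an inhibitory receptor of the Ly49 family that reads MHC class I of the H-2D kind found in BALB/c mice. The Ly49 genes are near-identical to each other and differ in number between mouse strains, so a probe designed on the reference strain may read other members, which makes the value uncertain. Klra1 was well above background on all 9 arrays. It read -2.08, -2.09 and -1.97 on the naive, -1.43, -1.52 and -1.93 on the Th1, and -2.29, -1.70 and 1.45 on the Th17 arrays. Th17 replicate 3 lay above the 8 others by 2.88, Th17 replicate 1 lay below the Th1 arrays, and Th17 replicate 2 lay among them.

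The log2 difference of Klra1 was 0.42 ± 0.82 between Th1 and naive cells (adjusted p = 0.694), 1.20 ± 0.82 between Th17 and naive (adjusted p = 0.246) and 0.78 ± 0.82 between Th17 and Th1 (adjusted p = 0.563). Without Th17 replicate 3 these became 0.42 ± 0.19 (adjusted p = 0.0933), 0.05 ± 0.21 (adjusted p = 0.852) and -0.37 ± 0.21 (adjusted p = 0.307), so the sign of the last rested on that array. Within slide 1, which held 3 naive arrays and 1 Th1 array, the Th1 level was 0.62 ± 0.14 above naive (adjusted p = 0.0352), in a fit that assumes the lone Th1 array to vary like the naive arrays. With slide as a block that difference rested on slide 1 as well, so it was again 0.62 (± 0.26, adjusted p = 0.107).

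Klrb1c encodes NKR-P1C, the activating receptor known as NK1.1 on NK cells of some mouse strains, though the antibody to it does not stain BALB/c cells. Its 2 probes were well above background on no array. The brighter probe read between -7.65 and -7.02 on the naive, between -7.47 and -6.93 on the Th1 and between -7.60 and -7.09 on the Th17 arrays. All of these lie under the limit of detection, so no fold is given.

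**Figure D2:**
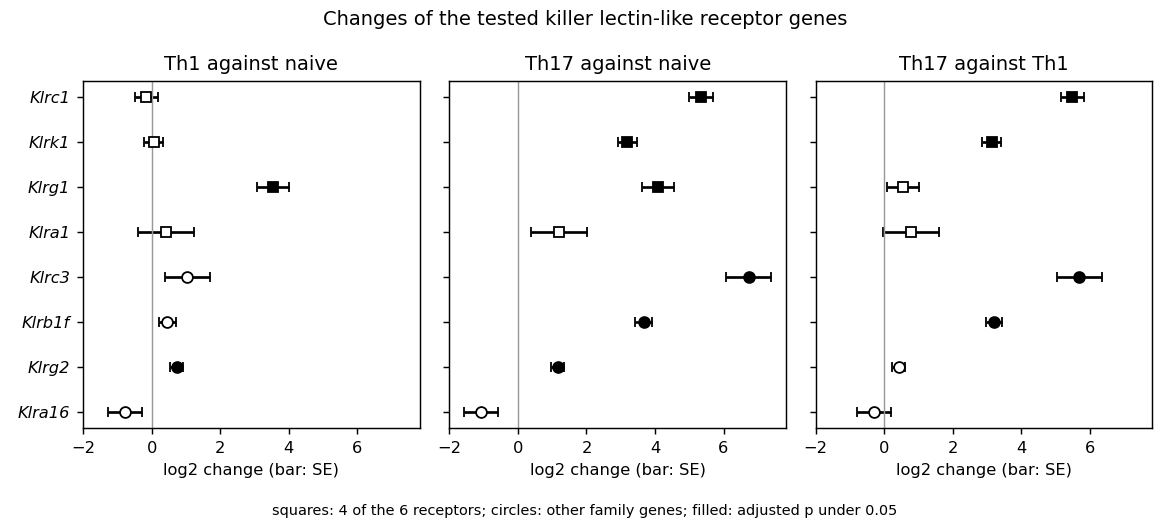
Log2 change ± SE (horizontal axis) of the 4 tested receptors (squares) and the 4 other tested genes of the family (circles) in the 3 comparisons, from the limma fit over 9 arrays. Filled marks passed an adjusted p under 0.05: Klrc1, Klrk1, Klrc3 and Klrb1f in both comparisons of Th17 cells, and Klrg1 and Klrg2 in both comparisons with naive cells.

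Values within slides kept the calls between Th17 and Th1 cells. Within slide 2, which held 2 Th1 and 2 Th17 arrays, Klrc1 was 5.94 ± 0.25 higher in Th17 cells (adjusted p = 0.00278) and Klrk1 3.57 ± 0.15 (adjusted p = 0.00278). With slide as a block, slide 2 alone held both groups, so the differences were again 5.94 (adjusted p = 0.00034) and 3.57 (adjusted p = 0.000496). They are fixed to the values within slide 2 by the layout and are no further check. Against naive cells, compared through the Th1 arrays of both slides, the block gave 6.46 for Klrc1 (adjusted p = 0.00075). It gave 3.90 for Klrk1 (adjusted p = 0.00103) and 5.11 for Klrg1 (adjusted p = 0.00867). For Klrc1 and Klrk1 no Th1 array was well above background. The shift between slides that enters their values is background signal, so the sizes 6.46 and 3.90 are uncertain. The sizes 5.94 and 3.57 within slide 2 also rest on Th1 arrays below background. For Klrg1 no naive array was above background, so the size 5.11 is uncertain too. In slide 1, its 1 Th1 array lay 4.18 above the naive mean for Klrg1 (adjusted p = 0.0094), in a fit that assumes the lone array to vary like the naive arrays, none of which was above background for Klrg1.

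Leaving out Th17 replicate 3 left Klrc1 at 5.46 against naive and 5.61 against Th1 cells, Klrk1 at 3.49 and 3.44, and Klrg1 at 4.15 against naive cells, each with an adjusted p of at most 0.000739. The size of these changes depended on how the signal was processed. The normexp fits changed the background correction and also added an offset of 50, and the effects of these were not tested apart. Under normexp on the raw median signal, spots with an outlier flag left out, Klrc1 was 2.77 above naive and 3.00 above Th1 cells. Klrk1 was 0.57 and 0.70 above them, and Klrg1 in Th1 and Th17 cells 0.55 and 0.98 above naive, with the calls kept. Where a lower bound was given for these receptors above, the normexp value lies under it (for Klrc1 against Th1 cells, 3.00 where the bound is 4.84 in log2). Normexp on all spots ended the calls except that of Klrc1 against naive cells, and 1 spot of Th1 replicate 2 then had a local background of 168530 where no unflagged spot of any array exceeded 53.

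Other genes of the family were followed through a list of 35 names, the neighbouring lectin receptor Clec12b included. Of these, 21 had a probe, 9 were well above background on at least 1 array, and 12 on none. The 4 that were tested were Klrc3, Klrb1f, Klrg2 and Klra16. Among them 3 were higher in Th17 than in naive cells, where 24.4% of all tested genes were called higher. The median log2 difference of the 4 was 2.41, and of all tested genes -0.09. Against Th1 cells 2 were higher in Th17 cells, where 8.26% of all tested genes were called higher (median 1.82, all genes 0.01). In Th1 against naive cells 1 was higher, where 23.5% of all tested genes were called higher (median 0.60, all genes -0.09). These counts too are a description, since Klrb1f passed the filter through the Th17 arrays alone. Klrc3 passed it through these with 1 naive and 1 Th1 array.

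Klrc3 encodes NKG2E, a further partner of CD94 and a close paralog of NKG2A. Its brightest probe read 0.77, 0.54 and -0.05 on the Th17 arrays, -7.17, -7.06 and -4.70 on the naive and -4.57, -5.35 and -5.89 on the Th1 arrays. The Th17 arrays lay above the 6 others, of which 1 naive and 1 Th1 array were above background. The log2 difference was 6.73 ± 0.65 against naive (adjusted p = 6.44e-05) and 5.69 ± 0.65 against Th1 cells (adjusted p = 0.000785). A second Klrc3 probe, which was above background on 4 arrays, gave 0.35 ± 1.22 (adjusted p = 0.825) and 0.96 ± 1.22 (adjusted p = 0.64), and the remaining one was above background on none. Because the probes disagree, and Klrc1, Klrc2 and Klrc3 are close in sequence, the Klrc3 value is uncertain and its first probe may also read Klrc1 or Klrc2; this was not tested.

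Klrb1f encodes NKR-P1F, a receptor for Clr ligands encoded by Clec2 genes of the same region. It read -3.49, -3.48 and -3.73 on the Th17 arrays and between -7.63 and -6.30 on the 6 others, none of which was above background. The Th17 level was at least 2.99-fold above the naive and at least 2.87-fold above the Th1 limit of detection (log2 differences 3.67 ± 0.24 and 3.21 ± 0.24; adjusted p = 8.88e-06 and 8.76e-05). Klrg2, a little-studied gene of the family, read between -4.87 and -4.51 in naive, between -4.05 and -3.87 in Th1 and between -3.77 and -3.12 in Th17 cells, with no overlap between groups. Of the naive arrays only 2 were well above background for Klrg2, so the sizes of its rises over naive cells are uncertain. Over naive cells it rose by 0.74 ± 0.19 in Th1 cells (adjusted p = 0.0106) and by 1.16 ± 0.19 in Th17 cells (adjusted p = 0.0011), and Th17 and Th1 cells gave a difference of 0.42 ± 0.19 (adjusted p = 0.176). Klra16 passed no comparison, with log2 differences between -1.07 and -0.30.

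Along chromosome 6, in the gene order of the RefSeq annotation of GRCm38.p6 and among genes with a probe, Klrd1, Klrk1, Klrc3 and Klrc1 follow each other directly. Klrk1, Klrc3 and Klrc1 were higher in Th17 than in both other groups, and Klrd1 was above background on 2 Th17 arrays alone. For Klrc3 this holds for its brightest probe, which may also read Klrc1 or Klrc2. The rises of Klrc3 and Klrc1 may thus not be separate signals, which was not tested. The genes on either side of the run, Klre1 and Klri1, were well above background on no array. Klrb1f, which had the same pattern, lies apart from them among Clec2 genes, of which Clec2i fell by 2.19 ± 0.21 from Th1 to Th17 cells (adjusted p = 0.000277).

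**Figure D3:**
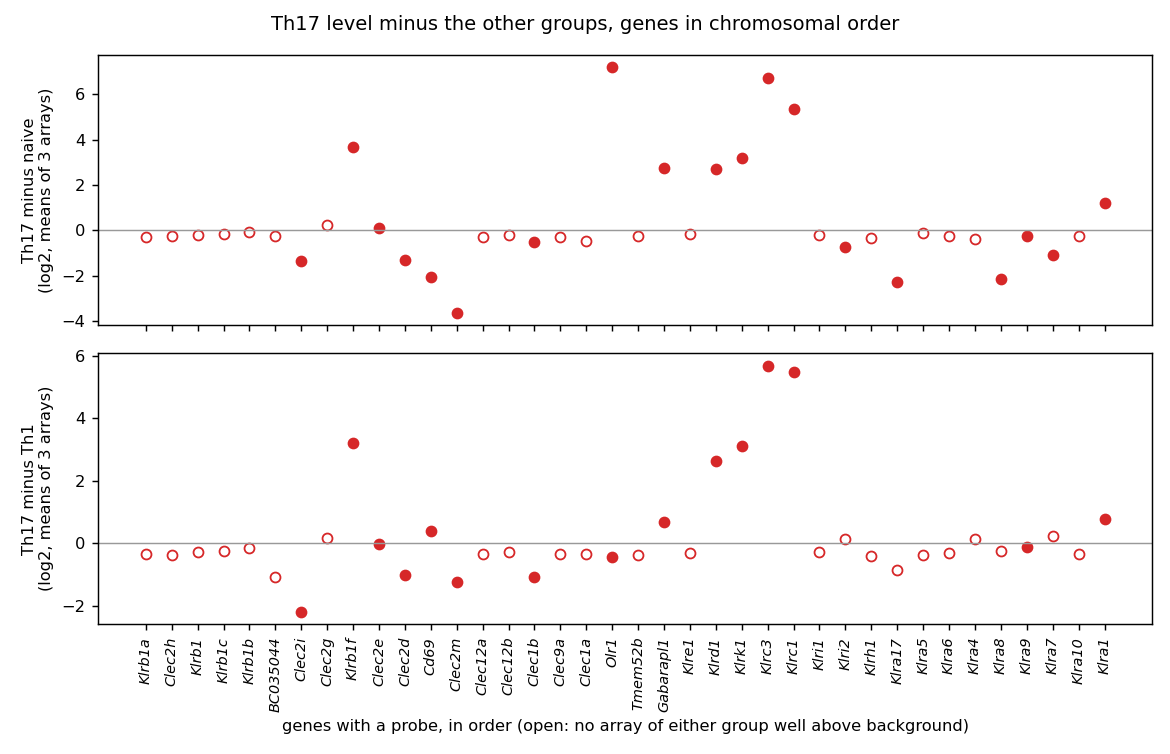
Difference between the mean Th17 level and the mean naive level (top) or Th1 level (bottom) on the log2 scale, for genes of the NK gene complex with a probe, in chromosomal order from Klrb1a to Klra1 with equal spacing. Open points had no array of either group well above background. The adjoining genes Klrd1, Klrk1, Klrc3 and Klrc1 lie between 2.62 and 6.73 in both panels, and Klrb1f lies at 3.67 and 3.21. Klrc3 is shown by its brightest probe, which may also read Klrc1 or Klrc2.

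The promoters of the genes that were higher in Th17 than in both other groups are shown because their members moved together, Klrc3 by its brightest probe alone. They are the 250 bases before the RefSeq start of each gene, in GRCm38.p6, 5′ to 3′ on the strand of the gene. Klrc1 lies at chr6:129678974-129679223 on the minus strand, Klrk1 at chr6:129623865-129624114 on the minus strand, Klrc3 at chr6:129643289-129643538 on the minus strand and Klrb1f at chr6:129045651-129045900 on the plus strand. Capitals mark matches to RUNX and GATA letters.
Klrc1: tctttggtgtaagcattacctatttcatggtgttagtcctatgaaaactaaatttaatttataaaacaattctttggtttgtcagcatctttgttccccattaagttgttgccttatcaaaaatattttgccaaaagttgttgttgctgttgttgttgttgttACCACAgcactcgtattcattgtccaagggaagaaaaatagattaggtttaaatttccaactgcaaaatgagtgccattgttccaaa
Klrk1: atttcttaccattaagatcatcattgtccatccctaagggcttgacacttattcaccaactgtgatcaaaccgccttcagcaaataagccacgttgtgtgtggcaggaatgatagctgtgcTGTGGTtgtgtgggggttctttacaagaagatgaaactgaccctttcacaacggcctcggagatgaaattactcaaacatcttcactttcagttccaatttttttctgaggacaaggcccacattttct
Klrc3: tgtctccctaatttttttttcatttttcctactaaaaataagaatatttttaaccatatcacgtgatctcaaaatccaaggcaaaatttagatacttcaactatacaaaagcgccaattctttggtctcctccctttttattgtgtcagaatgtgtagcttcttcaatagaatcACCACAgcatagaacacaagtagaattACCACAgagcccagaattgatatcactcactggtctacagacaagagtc
Klrb1f: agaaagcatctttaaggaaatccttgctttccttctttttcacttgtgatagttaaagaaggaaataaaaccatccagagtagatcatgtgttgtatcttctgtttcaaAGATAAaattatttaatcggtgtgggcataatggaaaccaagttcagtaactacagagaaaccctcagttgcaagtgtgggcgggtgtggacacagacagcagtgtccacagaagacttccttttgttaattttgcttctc

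A window of 300 bases, these 250 and the first 50 after the start, was searched on both strands for 7 motifs, with no overlap excluded. The letters were TGTGGT for RUNX, AGGTCA for a ROR half-site, AGGTGTGA for a T-box, TGANTCA for AP-1, GGAAA for NFAT, TTCNNNGAA for STAT and AGATAA for GATA. RUNX letters occurred in Klrc1 at -87, in Klrk1 at -129 and in Klrc3 at -76 and -49, counted to the first base of the match, and in 16.8% of 32851 promoters. The promoters of Klra1 and Klrb1c, which did not share the Th17 pattern, also held them, at -201 and -89. AP-1 letters lay past the start of Klrk1 at 18 and of Klrc3 at 2, and in 7.81% of promoters. Klrb1f held GATA letters at -141 (11.2% of promoters) and STAT letters at -5 (8.30%). NFAT letters, which are not marked above, occurred in 61.3% of promoters, in Klrc1 at -34, in Klrc3 at -226 and 41, and in Klrb1f at -235, -223, -190 and -109, and not in Klrk1. The ROR half-site and the T-box were found in none of these 4 windows, and in 16.3% and 1.28% of all promoters. A match is a description of the sequence and not of binding.

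The adaptors and proximal signalling genes through which such receptors act were tested as a list of 23, of which 19 passed the filter. In Th1 against naive cells 5 were higher and 8 lower (median -0.37), where 23.5% and 30.4% of all tested genes were called so (median -0.09). In Th17 against naive cells 3 were higher and 10 lower (median -0.54), where the shares of all genes were 24.4% and 29.7% (median -0.09). In Th17 against Th1 cells 1 was higher and 4 lower (median -0.16), where the shares were 8.26% and 7.50% (median 0.01). Hcst, which encodes the DAP10 adaptor of NKG2D, rose by 0.76 ± 0.16 in Th1 (adjusted p = 0.0043) and 0.60 ± 0.16 in Th17 cells (adjusted p = 0.0129) over naive cells. Tyrobp, which encodes the DAP12 adaptor and was picked after its values were seen, was well above background on naive replicate 3 at -4.11 and Th17 replicate 3 at -4.84 and on no other array. Ptpn6, the SHP-1 phosphatase recruited by NKG2A and Ly49A, fell by 0.80 in Th1 (adjusted p = 0.00665) and by 1.33 in Th17 cells (adjusted p = 0.000478). Ptpn11, the related SHP-2, was 0.80 higher in Th1 and fell by 0.49 in Th17 cells, each against naive cells (adjusted p = 0.00044 and 0.00548), and it fell by 1.29 ± 0.11 from Th1 to Th17 cells (adjusted p = 0.000159).

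Genes of ligands were also measured in the same T cells. Of 27 listed, 20 had a probe and 13 were tested. In Th17 against naive cells 1 was higher and 9 lower (median -0.72), where 24.4% and 29.7% of all tested genes were called higher and lower. In Th1 against naive cells 1 was higher and 3 lower (median -0.08), where the shares of all genes were 23.5% and 30.4%. In Th17 against Th1 cells 3 were lower (median -0.40; 7.50% of all genes). H2-T23, the Qa-1 ligand of NKG2A, fell by 0.51 in Th1 and fell by 0.70 in Th17 cells (adjusted p = 0.0187 and 0.00404). H60b, a ligand of NKG2D, fell by 1.24 ± 0.36 from naive to Th17 cells (adjusted p = 0.0188). Cdh2, another cadherin gene on the list, was the one called higher in Th17 than in naive cells, by 0.66 ± 0.21 (adjusted p = 0.0278). A second Cdh2 probe did not rise, with means of -3.95 in naive and -4.28 in Th17 cells. Cdh1, the E-cadherin ligand of KLRG1, was well above background on the 3 naive arrays at -4.80, -4.57 and -4.66 and on no Th1 or Th17 array. Its level in naive cells was at least 1.33-fold above the Th1 and at least 1.68-fold above the Th17 limit of detection (adjusted p = 3.07e-05 and 1.27e-05). Cdh1 passed the filter through the naive arrays alone, so its calls, which enter the counts of ligands called lower, are a description.

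Among 21 genes known to regulate these receptors, 7 were higher and 10 lower in Th1 than in naive cells (median -0.45), and likewise 7 and 10 in Th17 cells (median -0.39). Over all tested genes the median was -0.09 in both comparisons, and 23.5% were called higher and 30.4% lower in Th1 cells and 24.4% and 29.7% in Th17 cells. Zeb2, a transcription factor known from terminal effector cells, rose by 3.13 ± 0.12 in Th1 and 3.37 ± 0.12 in Th17 cells (adjusted p = 7.2e-07 and 7.35e-07), and Zbtb32 by 4.38 and 3.83 (adjusted p = 7.79e-07 and 1.75e-06). Among those that fell, Stat5a was 1.26 ± 0.09 lower in Th17 than in naive cells (adjusted p = 1.3e-05). Runx3, named after its values were seen, fell by 1.30 in Th1 and 1.79 in Th17 cells (adjusted p = 0.000595 and 0.000101). In Th17 against Th1 cells 2 were higher and 4 lower, where 8.26% and 7.50% of all genes were called so. Zbtb16, which encodes PLZF, the factor of innate-like T cells, was 1.82 ± 0.19 higher (adjusted p = 0.000438) and Bach2 0.67 ± 0.18 higher (adjusted p = 0.0359). Eomes, the T-box factor of NK and memory CD8 cells, fell by 4.50 ± 0.64 (adjusted p = 0.0024), though 1 of the 3 Th17 arrays measured it, so the size is uncertain, and Tox fell by 1.91, Stat5a fell by 0.45 and Tbx21, named after its values were seen, fell by 0.61 (adjusted p = 0.00268, 0.0116 and 0.0375).

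Markers of other cells that carry killer receptors were read beside these results. Of 12 NK cell markers, between 8 and 9 were well above background on every array, and Ncr1 and Sh2d1b1, which few cells other than NK cells express, on none. Their summed level, on a linear scale in units of the 75th percentile, was 20.5 to 24.0 on naive, 49.4 to 62.8 on Th1 and 49.9 to 55.3 on Th17 arrays. Most of this sum was Il2rb, with mean log2 levels of 3.51 in naive, 5.24 in Th1 and 5.41 in Th17 cells. The sum therefore follows that gene more than the list. Of the 9 tested, 5 were higher and 1 lower in Th1 than in naive cells (all tested genes, 23.5% and 30.4%), and 4 were higher and 3 lower in Th17 than in naive cells (all tested genes, 24.4% and 29.7%). Cd160 rose by 2.68 in Th1 and 2.04 in Th17 cells (adjusted p = 0.00104 and 0.00411). Itga2 rose by 2.38 and 1.96 (adjusted p = 0.00157 and 0.0041), with no naive array above background, so the sizes are uncertain. Prf1 fell by 1.02 in both effector groups (adjusted p = 0.00028 and 0.000265). Against Th1 cells 2 of the 9 were lower in Th17 cells, where 7.50% of all tested genes were called lower. These were Eomes and Nkg7, a granule protein (fell by 1.60 ± 0.11, adjusted p = 6.6e-05).

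Of the CD8 markers, Cd8a was well above background on no array and Cd8b1 on all 9, where it fell by 3.31 in Th1 cells and fell by 3.41 in Th17 cells against naive cells (adjusted p = 1.9e-06 and 1.83e-06). Their summed level was 0.573 to 0.685 on naive, 0.0639 to 0.0746 on Th1 and 0.0545 to 0.0758 on Th17 arrays. Of 5 markers of innate-like T cells 3 had a probe and 2 were tested. Blk was above background on no array, Sox13 was lower in Th1 and Th17 than in naive cells (it fell by 0.58 and fell by 0.53, adjusted p = 0.00652 and 0.00952), and Zbtb16 read -4.98, -4.67 and -4.83 on the naive, -3.87, -4.10 and -3.59 on the Th1 and -2.38, -1.89 and -1.83 on the Th17 arrays. The summed level of the 3 markers ran from 1.60 to 1.80 on naive, 1.14 to 1.33 on Th1 and 1.27 to 1.57 on Th17 arrays. Most of this sum was Sox13, so it does not follow Zbtb16. Zbtb16, like Klrc1, Klrk1 and Klrb1f, was higher in Th17 than in both other groups. It also rose from naive to Th1 cells, by 0.97 ± 0.19 (adjusted p = 0.00266), where these 3 passed no test. Its part in their levels was not tested.

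Myeloid markers, of which between 3 and 5 of 6 were above background on an array, summed to 17.0 to 17.2 on naive, 25.8 to 31.8 on Th1 and 20.1 to 30.8 on Th17 arrays. Most of this sum was the brightest Itgam probe, with means of 3.65 in naive, 4.72 in Th1 and 4.45 in Th17 cells. Of the 4 tested, Itgam by that probe was higher and Csf1r lower in both effector groups than in naive cells. Adgre1 passed no comparison. Of the dimmer Itgam probes, 1 had means of -3.23 in naive, -3.67 in Th1 and -3.33 in Th17 cells, with no rise. The other had -3.94, -3.33 and -3.42. Cd14 rose by 3.06 ± 0.36 from naive to Th17 cells (adjusted p = 0.000187) and was 2.47 ± 0.36 higher in Th17 than in Th1 cells (adjusted p = 0.00274). Lyz2, the lysozyme gene of myeloid cells, was not tested. It was well above background on 2 Th17 arrays and on no naive or Th1 array, with readings of -3.30, -5.27 and -4.78 on the Th17 arrays. Cd14 and Lyz2 were thus highest in Th17 cells, as Klrc1 and Klrk1 were, and their part in the receptor levels was not tested. Of 6 B cell markers, at most 2 were above background on any array, with sums of 0.0650 to 0.105 on naive, 0.0692 to 0.144 on Th1 and 0.0670 to 0.0850 on Th17 arrays. The 6 CD4 T cell markers were above background on every array and summed to 149 to 163 on naive, 217 to 238 on Th1 and 209 to 231 on Th17 arrays.

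For each tested receptor, the 3 genes with the closest profile over the 9 arrays were found by the root mean square difference of log2 levels, each centred on its own mean. Closest to Klrc1 were Hmga2-ps1 at 0.44, Ltb4r1, which encodes a leukotriene receptor, at 0.46 and Gm1673 at 0.46. Closest to Klrk1 were Olfr533 at 0.15, Gcnt2 at 0.23 and Pabpc2 at 0.30. As with Gm1673, Klrk1 and these 3 genes were below background on all 6 naive and Th1 arrays, so there the distance compares background signal and not expression. Closest to Klrg1 were the cytokine gene Il21 at 0.40, the costimulatory receptor gene Icos at 0.42 and Gpr15 at 0.43. Closest to Klra1 were Ddx25 at 0.10, Mrgprg at 0.11 and Cd300lf at 0.13. These 3 also stood apart on Th17 replicate 3, above every other array by 3.15, 3.08 and 2.65.

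**Figure D4:**
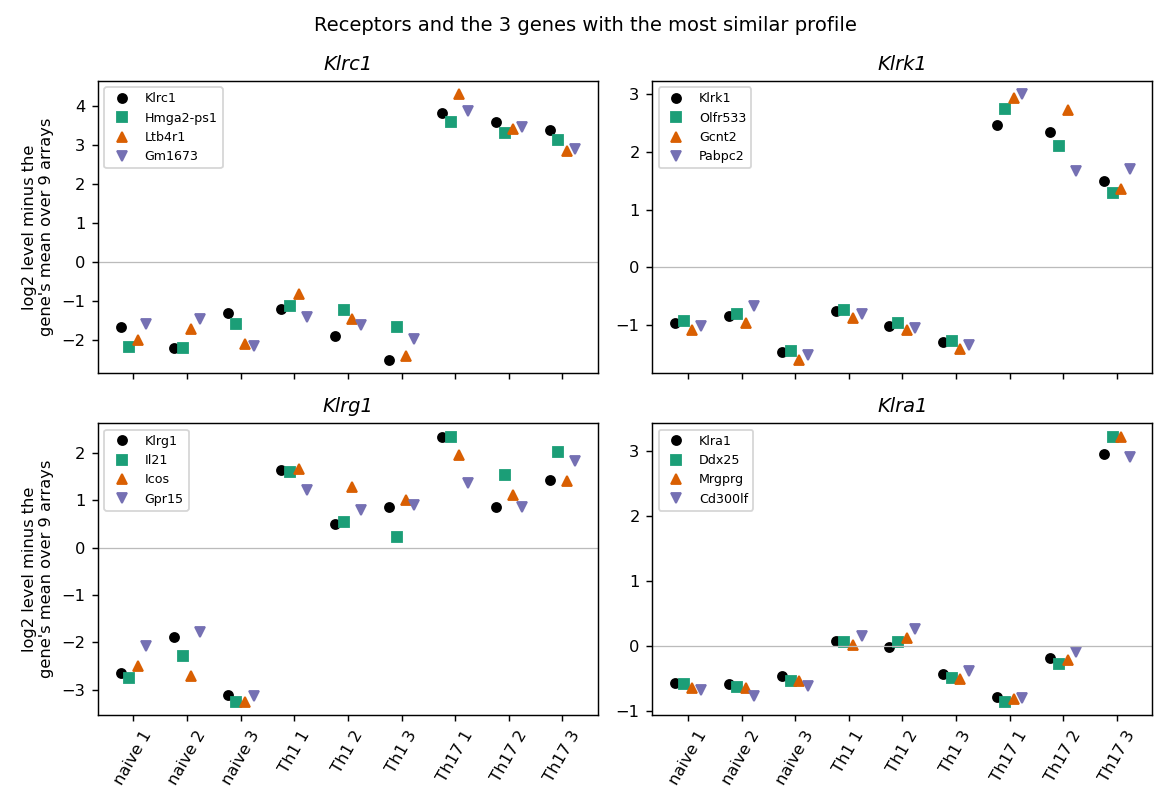
Level minus the mean of the gene over the 9 arrays (vertical axis, log2) for each tested receptor (black circles) and the 3 genes with the closest profile, by array (horizontal axis). The genes near Klrc1 and Klrk1 are high on the 3 Th17 arrays, those near Klrg1 are low on the 3 naive arrays, and those near Klra1 are high on Th17 replicate 3 alone.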

How the data were processed

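RNA (0.5 µg, Cy3) of 3 naive, 3 Th1 and 3 Th17 samples was hybridised to Agilent arrays of design 026655. The deposited intensity of each spot was background-subtracted by Feature Extraction, version 10.7.3.1 per the file headers (10.5 per the submitters' processing notes; build mm9 in the headers), with no normalization between arrays. The log2 values deposited by the authors followed these signals after a shift per array and one constant for each probe; its baseline is unstated.

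Of 44397 spots, 1377 controls and spots with a feature outlier flag were left out. The 75th percentile of each array was subtracted from its log2 signal, and replicate spots were averaged. Probes well above background on at least 3 of 9 arrays were kept (23310), the brightest per gene (19135 genes). Symbols came from RefSeq accessions (27234 of 39429 probes); promoters were at hand for Klrc1, Klrk1, Klra1 and Klrb1c of the 6 receptors. One limma model (limma 3.58.1, R 4.3.3) held all 3 groups (version 1.17.8 of data.table and 2.0.0 of jsonlite); p-values are two-sided and adjusted by Benjamini-Hochberg over all genes tested, with calls under 0.05. The fit was tested on simulated data. Python 3.11.15, pandas 2.3.3 and matplotlib 3.10.9 served motifs and figures. A bound sets the mean of the brighter group against, per array of the dimmer group, the higher of the lowest signal well above background and the probe's own. No probe of the 6 receptors was saturated. The number of arrays limits the precision.

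The receptors, gene lists and tests were chosen with earlier results of these data known. Lists were described by counts and medians. From lists, called genes were named (up to 5 by smallest adjusted p for regulators and cell markers), and any called receptor, adaptor or ligand. Genes named only for their background status (Ncr1, Sh2d1b1, Lyz2, Cd8a, Blk, Klre1, Klri1) were chosen after their values were seen. So was Adgre1, which passed no comparison. The rule for outlier flags and the normexp fits were settled after seeing the data. No label ties replicate numbers to shared animals, and the fit was unpaired. Alternatives were normalization, background correction, filters, probe summaries, the authors' values, slide and replicate blocks, and leaving out each array.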

Additional observations from a re-analysis of the deposited data

How the results depend on the processing

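The receptor calls kept their direction and side of the threshold under every alternative except normexp on all spots, chosen after seeing the data: leaving out each array, quantile normalization, the percentile over probes above background on all arrays, no filter or a stricter one, each probe or their mean, the authors' values, slide or replicate blocks, single slides, the 2 groups alone, and leaving out spots with background outlier flags. Over these settings, normexp with outlier-flagged spots left out apart, Klrc1 was 5.11 to 6.46 above naive and 5.17 to 5.94 above Th1 cells. The 6.46 came with slide as a block, where its size rests on Th1 arrays below background. Under that normexp fit Klrc1 was 2.77 and 3.00 higher. Normexp on the mean signal, as planned, could not be run, since the files hold no such column.

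Under normexp on the median signal of all spots, 1254, 1232 and 176 genes passed between Th1 and naive, Th17 and naive, and Th17 and Th1 cells (10316, 10348 and 3015 as reported), and 0, 1 and 0 receptors (1, 3 and 2 as reported); Klrc1 turned to 0.75 between Th1 and naive cells, and Klrk1 and Klrg1 to -0.20 and -0.38 between Th17 and Th1; the cause was not tested. Within slide 1, 6552 genes and 2 receptors passed between Th1 and naive cells, Klra1 being the second. Within slide 2, 1421 genes passed between Th17 and Th1, and with slide as a block 5252 between Th17 and naive. These fits have fewer arrays or residual degrees of freedom. With slide as a block, Th1 against naive rests on slide 1 and Th17 against Th1 on slide 2. Each such difference therefore equals that within the single slide by construction. Klrc1 between Th1 and naive cells, with 5 of 6 arrays below background, is a difference with no order; fitted at -0.15, it turned to 0.52 within slide 1 and with slide as a block, to 0.00 under the percentile over probes above background on all arrays, and ran from -0.48 to 0.17 without single arrays. Klra1 between Th17 and Th1 turned to -0.27 within slide 2 and with slide as a block, and ran from -0.37 to 1.50 without single arrays.

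Without single arrays, genes called ran from 8678 to 11007, 8826 to 10344 and 1925 to 2786, the last lowest without Th1 replicate 2, and receptors called stayed at 1, 3 and 2. With replicate number as a block, 10192, 10307 and 3026 genes and the same 1, 3 and 2 receptors passed, and Klrc1 was 5.34 above naive cells. Across genes, residuals of 2 arrays from different groups correlated at a Pearson r between -0.007 and 0.175 where they shared a number and between -0.197 and 0.065 where they did not, and 7 of 9 arrays correlated best with their own number, a hint from the data and not the design. Signal over background limits Klrd1, Klrk1 and Klrb1c, whose levels in naive and Th1 cells are unknown below the limit of detection.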

Other observations

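Naive replicate 3 held more signal for some probes of several Ly49 genes than the other naive arrays. Of the 21 other family genes with a probe, 8 were well above background there by their brightest probe. This held for 2 and 1 on naive replicates 1 and 2, between 2 and 3 on the Th1 arrays and between 4 and 5 on the Th17 arrays. Picked after their values were seen, Klra17 read -2.68 on naive replicate 3 and -7.26 and -6.28 on the other naive arrays, and Klra7 read -3.68 against -7.27 and -7.11. Klri2, a receptor of the same complex, read -4.98 there against -7.26 and -7.12. Klra16 was also highest there, at -2.56 against -4.85 and -3.63. These are the readings of the brightest probe of each gene, and other probes disagreed. The dimmest probes of Klra17, Klra7 and Klra16 read -7.59, -7.78 and -7.62 on naive replicate 3 and were above background on no array. Klrc1 was above background on this naive array alone, at -5.18, and Tyrobp read -4.11 there. Klrk1, Klrd1 and Klrg1 were not above background on it. These are values of 1 array, and no test was made.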
